A study of Homo sapiens with 8 samples.

Results

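The chemokine genes followed in DLD1 cells were the 5 ELR chemokine genes CXCL1, CXCL2, CXCL3, CXCL5 and CXCL8, together with CXCL16 and CCL20. They are 7 of the 58302 gene identifiers in the count table, and all 7 were among the 14133 genes with enough counts to test. They were chosen by name, and the choice was made with their values in this same contrast known, so their levels and fold changes are given as a description without a test. DLD1 is a human colorectal cancer cell line. One group (OE-WT) carried a lentiviral construct that overexpresses the wild-type TRMT6/61A complex, a methyltransferase that places m1A on tRNA, and the other (CTRL) carried the empty vector. Both were stably transduced populations of 1 cell line, and cells with catalytically inactive TRMT6/61A were not analysed here. Both groups were washed and lysed in the same way with cycloheximide, a translation inhibitor, in the wash, and RNA was taken from the cleared lysate. The labels give 2 libraries per group, each run in 2 lanes, and the table has 1 column per library. Nothing in the labels ties the libraries to separate transductions, so every p-value below measures only the spread between these libraries.

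Chemokines are small secreted proteins that attract cells through G protein-coupled receptors. The ELR chemokines carry the residues Glu-Leu-Arg in front of a pair of cysteines with 1 residue between them, and they attract neutrophils and promote vessel growth through CXCR2 and, for CXCL8, also CXCR1. CXCL16 has the same cysteine spacing but is made as a transmembrane protein that is shed by proteases and binds CXCR6, whereas CCL20 has adjacent cysteines and attracts CCR6-bearing lymphocytes and dendritic cells. In epithelium, the ELR genes and CCL20 are known targets of NF-kB, and their short-lived mRNAs carry AU-rich elements in the 3′ untranslated region.

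The stretch of coding sequence that defines the family is shown first because it separates the ELR genes from CXCL16 and CCL20. Each line gives 30 coding bases of the GENCODE release 44 transcript on GRCh38, 5′ to 3′ on the gene's own strand, with the 3 codons just before the paired cysteines in capitals.
CXCL1, chr4:73869680-73869709, plus strand: gccactGAACTGCGCtgccagtgcttgcag
CXCL2, chr4:74098882-74098911, minus strand: gccactGAACTGCGCtgccagtgcttgcag
CXCL3, chr4:74038373-74038402, minus strand: gtcactGAACTGCGCtgccagtgcttgcag
CXCL5, chr4:73998289-73998318, minus strand: ttgagaGAGCTGCGTtgcgtttgtttacag
CXCL8, chr4:73741562-73741591, plus strand: gctaaaGAACTTAGAtgtcagtgcataaag
CXCL16, chr17:4738874-4738903, minus strand: agcgtcACTGGAAGTtgttattgtggtaaa
CCL20, chr2:227815456-227815485, plus strand: gcaagcAACTTTGACtgctgtcttggatac
In the 5 ELR genes the capitals encode Glu-Leu-Arg, and CXCL1 and CXCL2 are identical over all 30 bases. CXCL16 and CCL20 encode other residues there. Over the whole precursor protein, translated from the same transcripts, CXCL1 was 89.7% identical to CXCL2 and 86.9% identical to CXCL3, and CXCL2 was 87.9% identical to CXCL3. CXCL1 shared 45.2% of aligned positions with CXCL5 and 36.9% with CXCL8. The similarity bears on the counts, because reads from CXCL1, CXCL2 and CXCL3 could be assigned to the wrong copy. Of all 50-base windows, 5.33% in the CXCL1 transcript, 10.1% in CXCL2 and 5.26% in CXCL3 occurred in another of these 3 transcripts, and no 150-base window did.

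**Figure D1:**
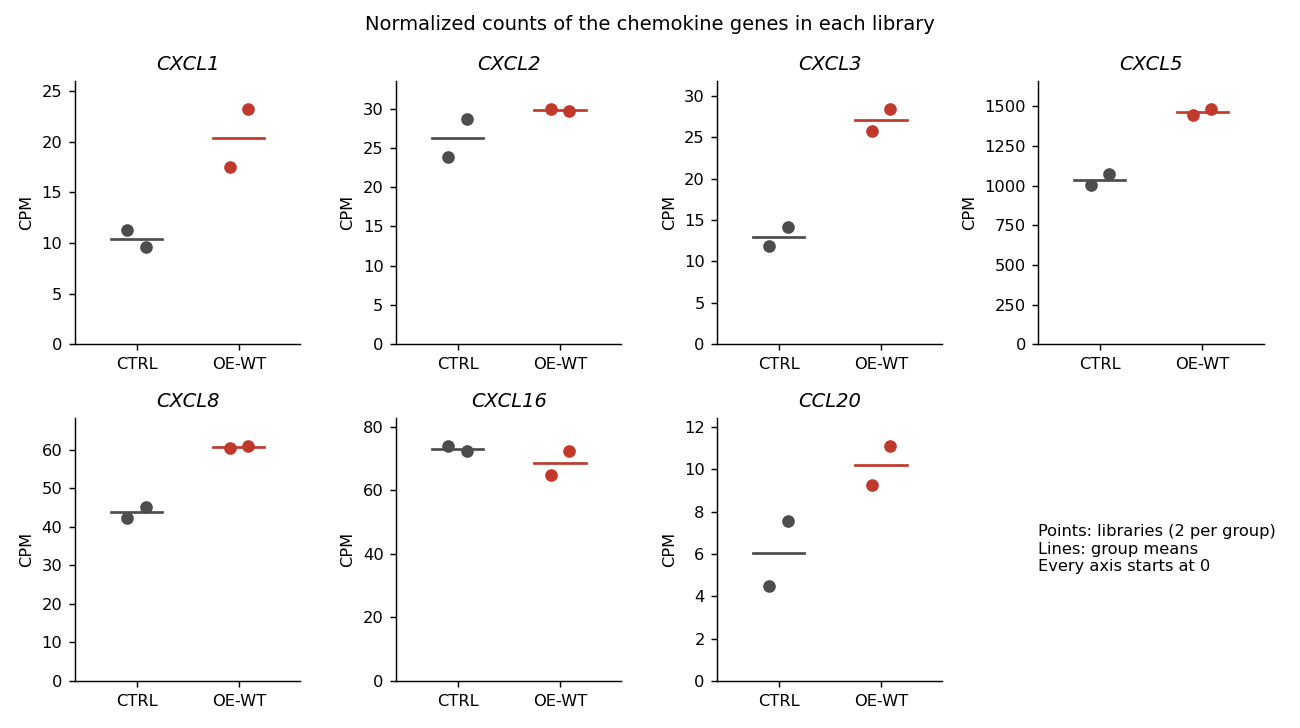
Counts normalized by the TMM-scaled library size (CPM, vertical axis from 0) of each chemokine gene in the 2 CTRL and the 2 OE-WT libraries; points are libraries and lines are group means. The OE-WT points lie above the CTRL points for every gene except CXCL16, where the groups overlap.

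The largest differences between the groups were at CXCL3 and CXCL1, which encode closely related ligands of CXCR2. CXCL3 had 25.8 and 28.4 CPM in the OE-WT libraries and 11.8 and 14.1 CPM in the CTRL libraries, where CPM are counts divided by the TMM-scaled library size per 1000000 counts. CXCL1 had 17.5 and 23.2 CPM in OE-WT and 11.3 and 9.58 CPM in CTRL. For both genes the groups did not overlap, and the lowest OE-WT value was well above the highest CTRL value. The group means were 27.1 ± 1.85 against 13.0 ± 1.63 CPM for CXCL3 and 20.4 ± 4.01 against 10.4 ± 1.20 CPM for CXCL1 (SD, n = 2 each). The log2 fold change of OE-WT over CTRL from edgeR was 1.06 (SE 0.12) for CXCL3, a 2.09-fold difference, and 0.96 (SE 0.15) for CXCL1, a 1.95-fold difference.

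CXCL2, the third gene of this closely related trio, stood apart from the other two. It had 29.9 and 29.7 CPM in OE-WT and 23.9 and 28.7 CPM in CTRL. The OE-WT libraries were both above the CTRL libraries, but by a margin narrower than the gap between the CTRL libraries. The log2 fold change was 0.18 (SE 0.11). The exact 95% Poisson interval of CTRL replicate 2, 25.7 to 31.8 CPM, overlapped that of OE-WT replicate 2, 26.4 to 33.2 CPM. Such intervals cover counting error only. Without CTRL replicate 1 the value was 0.06 and without CTRL replicate 2 it was 0.32.

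CXCL5, a CXCR2 ligand made by epithelial cells, was by far the most abundant of the chemokine mRNAs. It had 1442 and 1481 CPM in OE-WT against 1003 and 1071 CPM in CTRL. Both groups were tight and did not overlap, with means of 1462 ± 27.2 and 1037 ± 48.3 CPM (SD, n = 2 each). The log2 fold change was 0.50 (SE 0.07), or 1.41-fold. CXCL8, which encodes interleukin-8, was lower in level but differed by a similar factor. It had 60.5 and 61.0 CPM in OE-WT and 42.4 and 45.3 CPM in CTRL, with a log2 fold change of 0.47 (SE 0.08). The ratio of CXCL8 to CXCL5 counts was 0.0420, 0.0412, 0.0423 and 0.0423 in OE-WT replicates 1 and 2 and CTRL replicates 1 and 2, so these mRNAs kept almost the same proportion to each other in every library.

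The remaining chemokines lie on other chromosomes, and of these only CCL20 was higher in both OE-WT libraries than in both CTRL libraries. CCL20 had the fewest counts, 92 and 113 in OE-WT and 58 and 93 in CTRL, or 9.27 and 11.1 against 4.51 and 7.55 CPM. The OE-WT libraries were higher, but the spread within CTRL was wide, and the exact 95% Poisson interval of CTRL replicate 2, 6.09 to 9.25 CPM, overlapped that of OE-WT replicate 1, 7.47 to 11.4 CPM. The log2 fold change of CCL20 was 0.76 (SE 0.21). It was 0.43 without CTRL replicate 1 and 1.17 without CTRL replicate 2. CXCL16 was the only one of these genes that was not higher in OE-WT. It had 65.0 and 72.3 CPM in OE-WT and 74.0 and 72.3 CPM in CTRL, the groups overlapped, and the log2 fold change was -0.09 (SE 0.08). It was -0.02 without OE-WT replicate 1 and -0.18 without OE-WT replicate 2.

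Because the choice of genes used these same values, the counts over the list are a description. In the quasi-likelihood test of edgeR, adjusted by the Benjamini-Hochberg method over all genes tested, 5 of 7 had an adjusted p below 0.05, where 21.1% of all genes tested did. All 5 were higher, where 9.44% of all genes were, and 0 of 7 were lower, where 11.6% of all genes were. With library size as the only scaling, 733 genes were higher and 2451 lower, against 1334 and 1642 with TMM, and the median log2 fold change of all genes shifted by -0.09; 5 of 7 were still higher. Only CXCL3 passed both an unadjusted p below 0.05 and a log2 fold change above 1, where 0.899% of all genes did. Both OE-WT libraries lay above both CTRL libraries for 6 of 7, the exception being CXCL16, and for 29.9% of all genes tested. The median log2 fold change was 0.50, with a range from -0.09 to 1.06, beside a median of 0.01 over all genes. With 2 libraries against 2, an exact two-sided permutation test of one gene cannot give a p below 0.333. In bulk RNA, more cells that express a gene and more RNA per cell cannot be told apart.

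**Figure D2:**
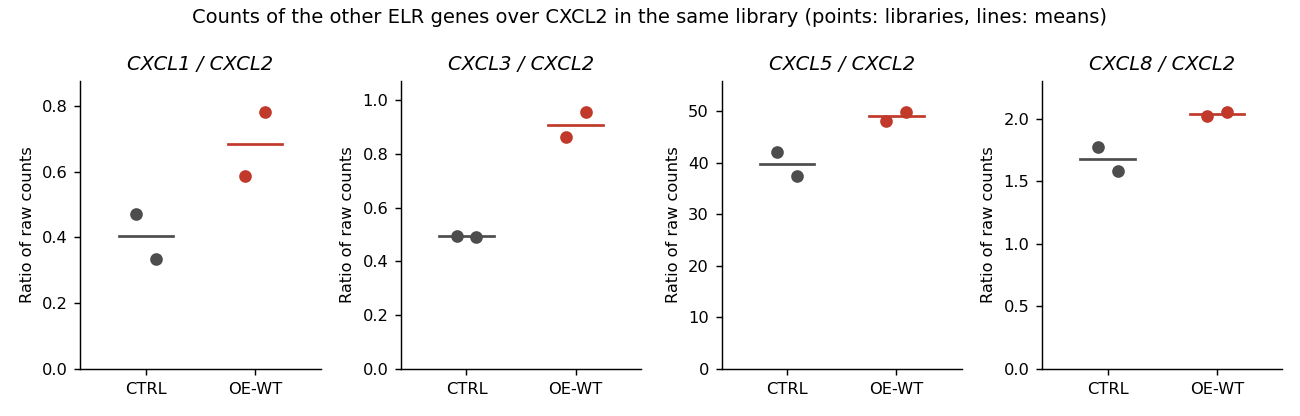
Raw counts of CXCL1, CXCL3, CXCL5 and CXCL8 divided by the CXCL2 count of the same library (vertical axes from 0); points are libraries and lines are group means. The CXCL3 ratio is 0.495 and 0.493 in CTRL and 0.862 and 0.957 in OE-WT.

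Ratios between the genes inside a library do not depend on how libraries are scaled. CXCL3 had 0.495 and 0.493 counts per CXCL2 count in CTRL and 0.862 and 0.957 in OE-WT. CXCL1 had 0.472 and 0.334 in CTRL and 0.586 and 0.781 in OE-WT. Neither ratio overlapped between the groups. In these libraries the 3 closely related genes thus differed in proportion and not only in level. This is a description without a test, because the genes were chosen with these values known. CXCL5 had 42.0 and 37.4 counts per CXCL2 count in CTRL and 48.2 and 49.9 in OE-WT. For CXCL8 the ratio was 1.78 and 1.58 in CTRL and 2.02 and 2.06 in OE-WT. The ratios show unequal differences, and they do not show which gene of a pair was unchanged.

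**Figure D3:**
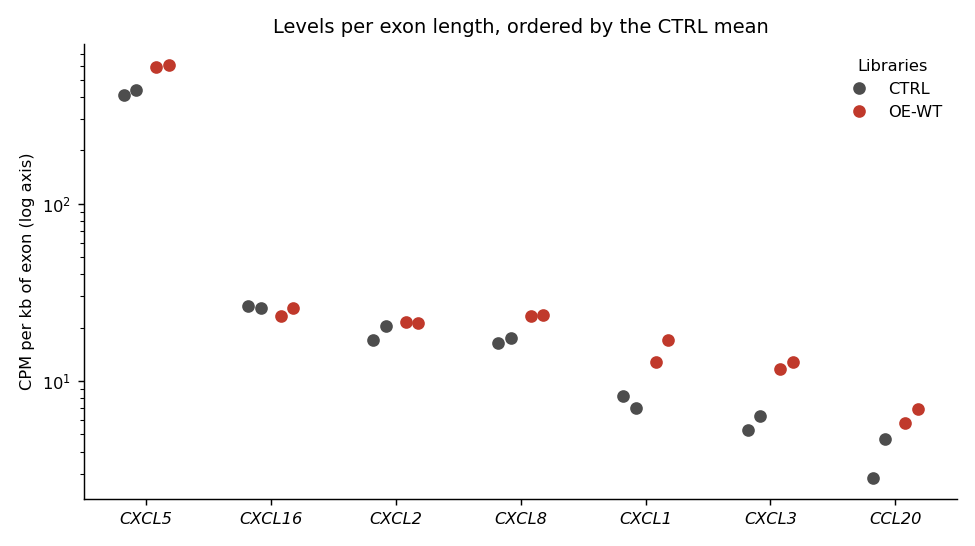
Levels of the chemokine genes per kilobase of exon (CPM per kb, log axis) in each library, ordered by the CTRL mean. CXCL5 lies at 412 to 608 CPM per kb in all 4 libraries, and the other genes lie at 26.5 or below.

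Levels between genes were compared per kilobase of annotated exon. In CTRL, CXCL5 was at 426 ± 19.8 CPM per kb, followed by CXCL16 at 26.2 ± 0.424, CXCL2 at 18.8 ± 2.42, CXCL8 at 16.9 ± 0.801, CXCL1 at 7.65 ± 0.879, CXCL3 at 5.84 ± 0.736 and CCL20 at 3.78 ± 1.35 (SD, n = 2). In this order CXCL2 and CXCL8 overlapped between libraries and could not be ranked. In OE-WT, CXCL5 was at 600 ± 11.2 CPM per kb, and CXCL16, CXCL8 and CXCL2 followed at 24.6 ± 1.86, 23.5 ± 0.132 and 21.3 ± 0.122. CXCL16 and CXCL8 overlapped there. CXCL1 at 14.9 ± 2.94 and CXCL3 at 12.2 ± 0.832 differed by less than the spread of CXCL1, and CCL20 was lowest at 6.39 ± 0.815 CPM per kb. With the length of the canonical transcript in place of all annotated exons, CXCL3 lay above CXCL1 in both groups, at 12.1 against 8.88 CPM per kb in CTRL and 25.2 against 17.3 in OE-WT. On that scale CXCL8 also lay above CXCL2 in CTRL, at 26.7 against 23.6, and above CXCL16 in OE-WT, at 37.0 against 29.5, so the order of these genes depends on the length used. CXCL5 alone took between 85.7% and 87.4% of all counts on the 7 genes in each library.

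The genes whose 4 library values were most like those of CXCL5 were sought among 10208 genes outside the 7 chemokines with a mean of at least 50 counts. Likeness was the Euclidean distance between log2 CPM values, each minus the gene's mean. Among the 3 nearest of these were SERPINB8, which encodes a serine protease inhibitor, at a distance of 0.0073, and the long noncoding RNA gene ENSG00000268205 at 0.035. Of the chemokines themselves, CXCL8 lay at 0.034 from CXCL5, nearer than that RNA gene. With 4 libraries in 2 groups, such a likeness reflects mostly the size of the group difference and is given as a description.

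**Figure D4:**
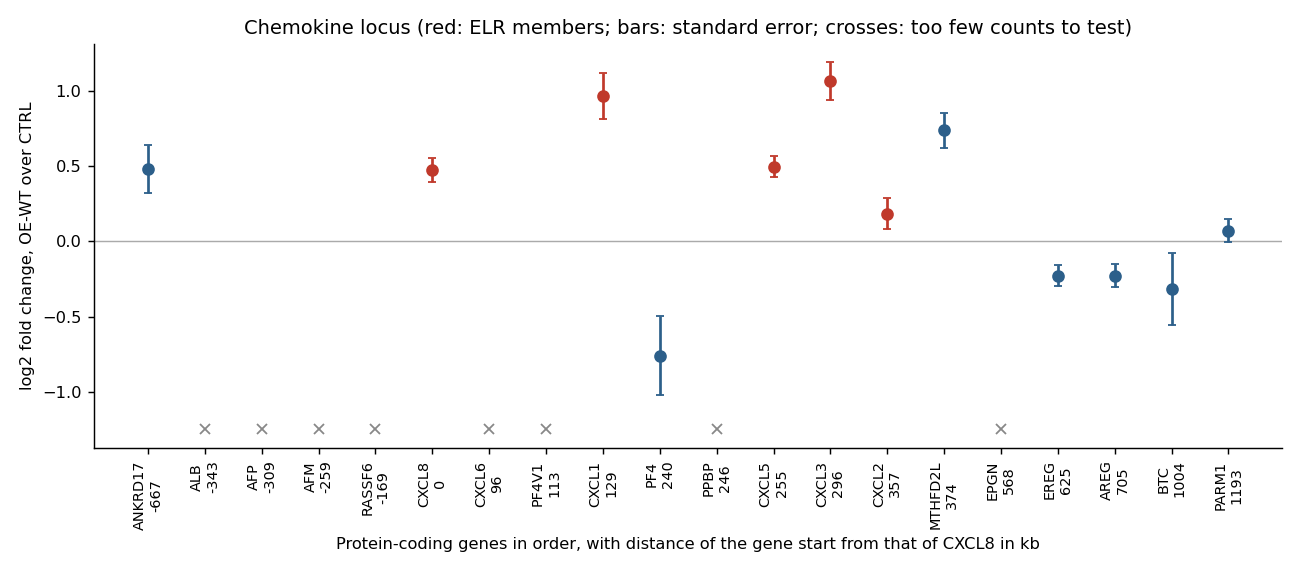
Log2 fold change of OE-WT over CTRL (vertical axis, bars are standard errors) for protein-coding genes in their order around the ELR genes, with the distance of each gene start from that of CXCL8 in kb. The 5 ELR genes in red lie above 0 and PF4 between them lies at -0.76; crosses are genes with too few counts to test.

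The 5 ELR genes lie within 358.7 kb on chromosome 4, from 73740519 to 74099196 on GRCh38, whereas CXCL16 is on chromosome 17 from 4733533 to 4739928 and CCL20 is on chromosome 2 from 227805739 to 227817564. The chromosome 4 interval holds 9 protein-coding genes, in the order CXCL8, CXCL6, PF4V1, CXCL1, PF4, PPBP, CXCL5, CXCL3 and CXCL2, and 6 of them had enough counts to test. The other ELR genes, CXCL6 and PPBP, were at 0 counts in all 4 libraries, which allows up to 3 counts per library, or 0.302 CPM in the library with the smallest scaled size. PF4V1 had at most 1 count. PF4, which encodes the platelet chemokine CXCL4 without the ELR residues, was lower in OE-WT, with 28 and 20 counts against 53 and 49. Its log2 fold change was -0.76 (SE 0.27, adjusted p = 0.046 by edgeR's quasi-likelihood test), and the adjusted p was 0.060 without a filter on low counts. DESeq2 gave it no adjusted p. The interval therefore held genes that differed in opposite directions, but the lower side rests on PF4 alone and its few counts.

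Of 13 listed neighbours of the ELR genes, which include the other chemokine genes of the interval, 6 were tested. Of these 6, 1 was higher and 3 were lower at an adjusted p below 0.05, beside 9.44% and 11.6% of all genes tested. The list leaves out ANKRD17, a tested gene at -667.1 kb from the start of CXCL8. ANKRD17 had a log2 fold change of 0.48 (SE 0.16), so the tally does not cover every tested gene around the ELR genes. MTHFD2L, a mitochondrial folate enzyme gene that starts 373.7 kb from the start of CXCL8, had 257 and 243 counts in OE-WT against 196 and 180 in CTRL. It rose by a log2 fold change of 0.74 (SE 0.12, adjusted p = 1.0e-04 by edgeR). EREG and AREG, which encode the EGF receptor ligands epiregulin and amphiregulin, both had a log2 fold change of -0.23 (edgeR adjusted p = 0.025 and 0.035). Both of those calls were lost with DESeq2, at adjusted p of 0.051 and 0.080, and that of AREG also without a filter (0.051). The EREG call was also lost in edgeR with a replicate block (adjusted p = 0.055). The AREG value was -0.11 without OE-WT replicate 1 and -0.37 without OE-WT replicate 2, and the EREG value was -0.14 without CTRL replicate 1.

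Sequence just before the transcription start was read for the 6 genes with an entry in the RefSeq promoter table (GRCh38.p14, 250 bases before to 50 after the start); the gene not in the table was CXCL16. The windows below are shown because the same 9 letters recur in each of the 5 ELR genes followed here, at nearly the same distance from the start. The match is in capitals, and each line runs 5′ to 3′ on the gene's strand.
CXCL8, chr4:73740468-73740497, plus strand: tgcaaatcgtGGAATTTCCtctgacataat
CXCL1, chr4:73869305-73869334, plus strand: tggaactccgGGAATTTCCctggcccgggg
CXCL5, chr4:73998748-73998777, minus strand: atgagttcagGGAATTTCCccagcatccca
CXCL3, chr4:74038748-74038777, minus strand: tggagctccgGGAATTTCCctggcccggcc
CXCL2, chr4:74099253-74099282, minus strand: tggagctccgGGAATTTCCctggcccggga
CCL20, chr2:227813753-227813782, plus strand: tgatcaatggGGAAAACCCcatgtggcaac
The letters GGAATTTCC, a form of the kappaB motif that NF-kB dimers recognise, occurred on either strand in 5 of 6 promoters, beginning 77 to 91 bases before the start, and in 0.461% of the 35116 RefSeq promoters. CCL20 held the kappaB form GGAAAACCC, which 0.410% of the promoters hold. The AP-1 letters TGANTCA occurred only in CXCL8 (7.71% of all promoters) and the TATA box letters TATAAA, searched on the sense strand, in CXCL8 and CCL20 (7.33%). The CXCL2 and CXCL3 windows were identical at 28 of 30 bases, although their log2 fold changes were 0.18 and 1.06. Both kappaB forms were searched as fixed letters that fit these genes, not as a general kappaB pattern. The shares beside them are therefore a description and not a test. CXCL1, CXCL2 and CXCL3 are closely related in sequence, so their matches are not independent. A match is a description of the sequence and not of binding.

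Further sequence features were read in the mRNAs. The pentamer ATTTA, the core of AU-rich elements, occurred 6 times in the 3′ untranslated region of CXCL1, 10 times in CXCL2, 7 times in CXCL3, 11 times in CXCL5, 9 times in CXCL8 and 3 times in CCL20. CXCL16 held 1 copy, and the median of 11652 protein-coding genes tested was 2. At least as many copies as in CCL20 were held by 46.1% of these genes, and as in CXCL1 by 27.7%. Per kilobase of the region, the ELR genes held from 5.51 copies (CXCL5) to 13.9 (CXCL2). CCL20 held 6.30 and CXCL16 1.03 per kilobase, beside a median of 1.64. The codons GAC, GAG, GCA and TTG together made up 3.74% of codons in CXCL2 and in CXCL3, 5.26% in CXCL5, 5.61% in CXCL1, 6.69% in CXCL16, 9.38% in CCL20 and 11.1% in CXCL8, beside a median of 9.46%.

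The study's RT-qPCR primers for CCL20 and CXCL8 were placed on the transcripts to show which part each assay reads. Each primer matched its transcript exactly once within the coding sequence.
CCL20 forward, exon 1: atgtgctgtaccaagagttt
CCL20 reverse, exon 3: caagtctgttttggatttgc
CXCL8 forward, exon 2: ttttgccaaggagtgctaaaga
CXCL8 reverse, exon 3: aaccctctgcacccagttttc
Each assay therefore spans at least 1 exon junction, whereas the sequencing counts sum reads over all annotated exons of the gene.

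**Figure D5:**
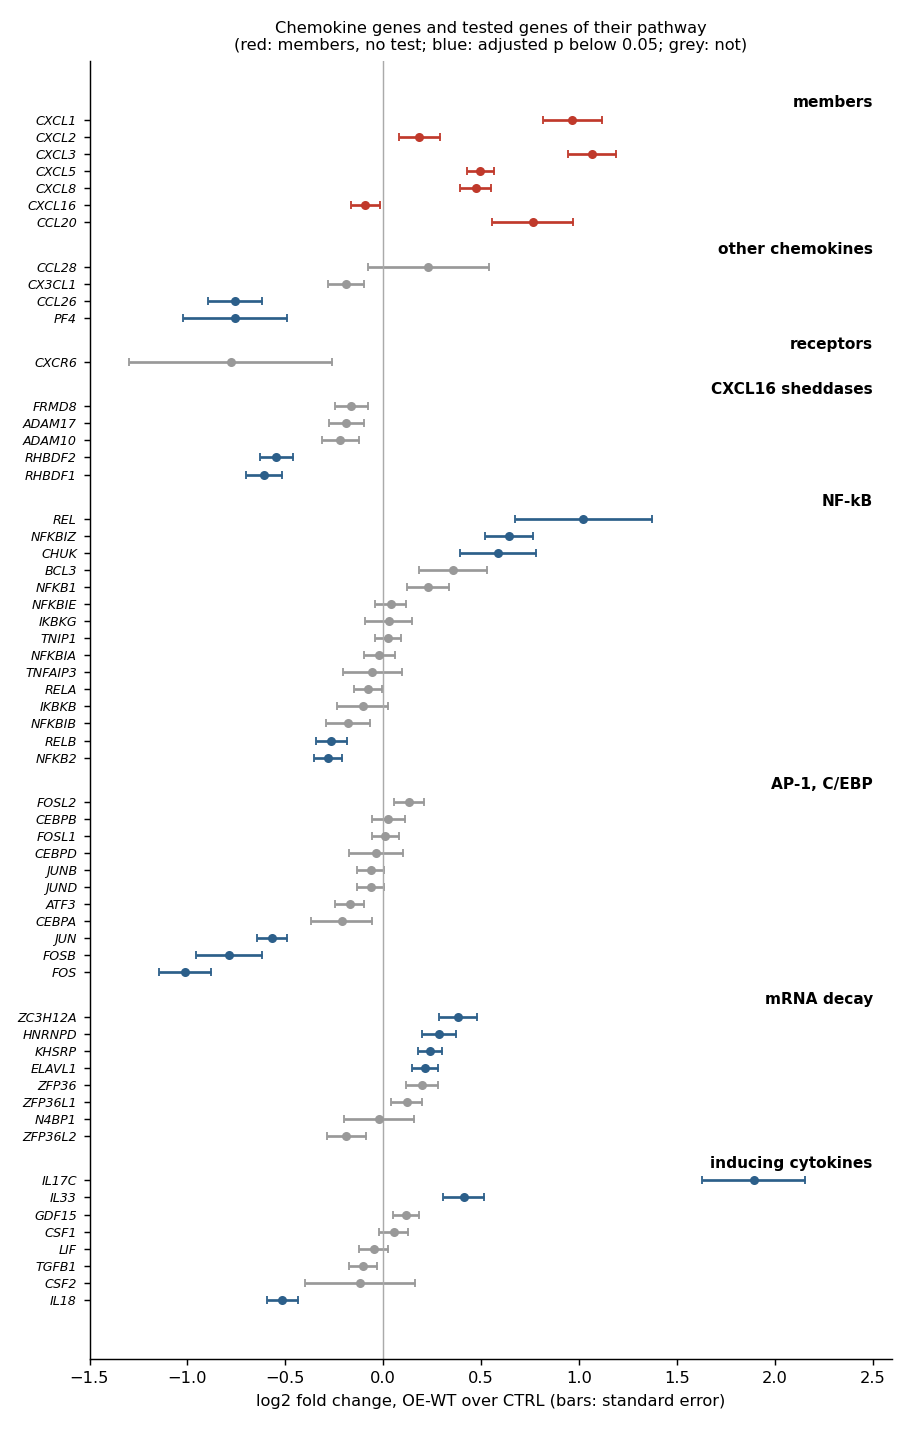
Log2 fold change of OE-WT over CTRL (horizontal axis, bars are standard errors) for the chemokine genes in red and for tested genes of their pathway, grouped by role. Blue points passed an adjusted p below 0.05 and grey points did not; IL17C has the highest value at 1.89.

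Other chemokine genes were mostly silent in these cells. Of 10 CXC and CX3C chemokine genes without the ELR residues, 2 were tested, PF4 and CX3CL1, and the latter, which encodes fractalkine, had a log2 fold change of -0.19 (SE 0.09, edgeR adjusted p = 0.15). CXCL9, CXCL10, CXCL11 and CXCL12 had at most 2 counts in any library. Of 17 other CC chemokine genes, 2 were tested. CCL26, which encodes the eosinophil attractant eotaxin-3, fell, with 119 and 176 counts in OE-WT against 334 and 291 in CTRL and a log2 fold change of -0.76 (SE 0.14, edgeR adjusted p = 4.6e-04). CCL28, a mucosal chemokine, had a log2 fold change of 0.23 (SE 0.31, edgeR adjusted p = 0.65). CCL2, CCL3, CCL4, CCL5, CCL17 and CCL18 had at most 2 counts and CCL22 at most 6.

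The receptors for the 7 chemokines were near or at the floor. CXCR2, the shared receptor of the ELR chemokines, had 8 and 6 counts in OE-WT against 15 and 10 in CTRL, and CXCR1 had 0 and 1 against 3 and 3. CCR6, the CCL20 receptor, and the scavenger ACKR1 were at 0 in all 4 libraries, ACKR2 had between 5 and 10 counts and ACKR3 between 1 and 3. CXCR6, the CXCL16 receptor, was the only one tested, with 3 and 9 counts against 15 and 11. Its log2 fold change was -0.78 (SE 0.52, edgeR adjusted p = 0.31), and it was -0.22 without OE-WT replicate 1 and -1.75 without OE-WT replicate 2. Of 13 other chemokine receptor genes, 3 were tested, CXCR5, CCR1 and CCR3, and 0 had an unadjusted p below 0.05 in edgeR or in DESeq2; edgeR called 0 after adjustment, and DESeq2 gave only CXCR5 an adjusted p and did not call it.

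Of 5 genes for the shedding of CXCL16, all tested, 2 were lower and 0 higher, where 11.6% of all genes were lower. Shedding of CXCL16 from the cell surface depends on the metalloproteases ADAM10 and ADAM17, and ADAM17 needs the iRhom proteins and FRMD8. RHBDF1 and RHBDF2, which encode the iRhoms, fell, with log2 fold changes of -0.61 (SE 0.09) and -0.55 (SE 0.08) and edgeR adjusted p of 7.1e-05 and 8.3e-05. ADAM10 and ADAM17 had values of -0.22 (SE 0.09) and -0.19 (SE 0.09) with adjusted p of 0.10 and 0.14, and with library size as the only scaling both were called lower (adjusted p = 0.019 and 0.032). FRMD8 had -0.16 (SE 0.09, edgeR adjusted p = 0.18). Of 11 proteases that can trim chemokines, 2 were tested and both fell. MMP14, a membrane-bound matrix metalloprotease, had 148 and 158 counts against 644 and 560 and a log2 fold change of -1.65 (SE 0.10, edgeR adjusted p = 4.1e-10). DPP4, which removes N-terminal dipeptides, had -1.05 (SE 0.32, edgeR adjusted p = 0.022). DESeq2 gave DPP4 no adjusted p. MMP1, MMP2, MMP3 and MMP9 had at most 2 counts.

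Among 15 genes of NF-kB subunits, inhibitors and kinases, all tested, 3 were higher, 2 were lower and 10 did not pass. Over all genes tested, 9.44% were higher and 11.6% lower. The median log2 fold change of the 15 was 0.02. NFKBIZ, a nuclear cofactor needed for a subset of NF-kB targets, rose, with 224 and 217 counts against 181 and 173 and a log2 fold change of 0.64 (SE 0.12, edgeR adjusted p = 6.3e-04). CHUK, the IKK-alpha kinase gene, rose by 0.59 (SE 0.20, edgeR adjusted p = 0.037), a call lost with DESeq2, with library size only and without a filter, and the value was 0.34 without OE-WT replicate 1. REL, named after its value was seen, had few counts, 21 and 23 against 15 and 12, with a log2 fold change of 1.02 (SE 0.35, edgeR adjusted p = 0.041). DESeq2 gave it no adjusted p, and the call was lost with library size only (0.058) and without a filter (0.061). NFKB2 and RELB, the subunits of the noncanonical pathway, fell, with values of -0.28 and -0.26 (edgeR adjusted p = 0.0064 and 0.021), and neither passed with DESeq2 (0.051 and 0.16). The feedback inhibitors NFKBIA and TNFAIP3 had log2 fold changes of -0.02 (SE 0.08) and -0.06 (SE 0.15), and these did not pass (edgeR adjusted p = 0.89 and 0.84); both were named after their values were seen.

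Of 11 AP-1 and C/EBP genes, all tested, 0 were higher and 3 were lower, beside 9.44% and 11.6% of all genes tested. FOS fell by 1.01 on the log2 scale, from 375 and 399 counts in CTRL to 180 and 126 in OE-WT (edgeR adjusted p = 1.4e-05). FOSB and JUN had log2 fold changes of -0.79 and -0.57 (edgeR adjusted p = 0.0020 and 1.6e-05). All 3 calls held under every alternative with a test. Of 8 genes for proteins that bind or cut AU-rich and stem-loop mRNAs, 4 were higher and 0 lower, beside the same shares of all genes. ZC3H12A, the endonuclease Regnase-1, had a log2 fold change of 0.38 (SE 0.10, edgeR adjusted p = 0.0067), and HNRNPD, KHSRP and ELAVL1 had values of 0.28, 0.24 and 0.21 (edgeR adjusted p = 0.022, 0.0091 and 0.026). With library size as the only scaling, the calls of these last 3 were lost, at adjusted p of 0.12, 0.22 and 0.31, and with DESeq2 the calls of ZC3H12A, HNRNPD and ELAVL1 were lost, at 0.084, 0.14 and 0.15. HNRNPD and ELAVL1 were also lost without a filter, at 0.092 and 0.096, and the HNRNPD value was 0.14 without OE-WT replicate 1. The ELAVL1 call was lost with a replicate block too.

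Several cytokines known to induce ELR chemokines were near or at 0 counts. IL1B and IL17A were at 0 in all 4 libraries, IL6 had at most 1 count, and IL1A and TNF at most 3. In a wider list of 17 cytokine genes, not all of them known inducers, 8 were tested. Of these 8, 2 were higher and 1 lower, beside 9.44% and 11.6% of all genes tested. IL17C, an epithelial member of the IL-17 family, had 53 and 75 counts in OE-WT against 21 and 22 in CTRL. It rose by a log2 fold change of 1.89 (SE 0.26, edgeR adjusted p = 2.4e-05). The call held under all 5 alternatives that gave it an adjusted p, which DESeq2 did not. IL33, a nuclear alarmin, rose by 0.41 (SE 0.10, edgeR adjusted p = 0.0071), which DESeq2 did not call (0.10). IL18 fell, with a log2 fold change of -0.52 (SE 0.08, edgeR adjusted p = 6.3e-05). CSF1, CSF2, TGFB1 and GDF15 had values of 0.05, -0.12, -0.10 and 0.11 and did not pass.

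Of 20 receptors and adaptors for these signals, 18 were tested. Of these 18, 1 was higher and 4 were lower, beside 9.44% and 11.6% of all genes tested. IL17RA, the common IL-17 receptor chain, fell, with 467 and 495 counts against 888 and 837 and a log2 fold change of -0.52 (SE 0.08, edgeR adjusted p = 4.7e-05). TNFRSF1A fell with -0.27 and NOD1 with -0.62 (edgeR adjusted p = 0.017 and 0.039), and the NOD2 value, named after it was seen, was -1.06 (edgeR adjusted p = 0.041). TNFRSF1A did not pass with DESeq2 (0.12), nor NOD1 and NOD2 without a filter (0.057 and 0.061). DESeq2 gave NOD1 and NOD2 no adjusted p. Without OE-WT replicate 1 the TNFRSF1A value was -0.16, and without CTRL replicate 1 the NOD2 value was -0.64. MYD88, the adaptor of Toll-like and IL-1 receptors, rose by 0.31 (SE 0.09, edgeR adjusted p = 0.021), which was lost with DESeq2, with library size only and without a filter.

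TRMT6 had 2092 and 1841 counts in OE-WT against 677 and 683 in CTRL, a log2 fold change of 1.86 (SE 0.08), and TRMT61A had 1365 and 1327 against 758 and 700, a log2 fold change of 1.21 (SE 0.07), both in the direction of the labels. Total counts were 10327498 to 10460284 in OE-WT and 12063433 to 12379671 in CTRL, so the 2 groups also differed in depth. Of 10 colon epithelial markers 9 were tested, and their levels differed widely. EPCAM had between 4693 and 6714 counts and CDX2 between 1066 and 1303. VIL1 had only 36 to 45 counts, LGALS4 had 11 to 13, and CDX1 was at or near 0. CDH1 and the differentiation keratin KRT20 were among the 3 that were lower in OE-WT (log2 fold changes -0.29 and -1.52, edgeR adjusted p = 0.0032 and 7.0e-08), and KRT8 and KRT18 were higher, though not with library size as the only scaling (adjusted p = 0.30 and 0.15). The KRT8 call was also lost with a replicate block. Of 8 leukocyte, 6 fibroblast and 4 endothelial markers, 2, 1 and 1 had enough counts to test. VWF was lower in OE-WT, with 5 and 6 counts against 30 and 14 (log2 fold change -1.65, edgeR adjusted p = 0.018), and the value was -1.04 without CTRL replicate 1. DESeq2 gave VWF no adjusted p. Low counts were also found for CD14 (14 to 31), CSF1R (24 to 28), COL1A1 (18 to 22), PDGFRB (7 to 12) and PECAM1 (0 to 3), while PTPRC, CD3E, COL1A2, COL3A1, DCN, CDH5 and KDR had at most 1 count in any library. The part of these markers in the chemokine values was not tested.

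The annotated spans of CXCL16 and CXCL5, introns included, share bases with the spans of other genes. CXCL16 overlaps MED11 by 76 bases and ZMYND15 by 96 bases on the opposite strand. CXCL5 overlaps the long noncoding RNA gene ENSG00000287037 by 745 bases on the opposite strand. That RNA gene was not among the gene identifiers counted. MED11 had a log2 fold change of -0.12 (SE 0.16) and ZMYND15 had 0.39 (SE 0.33), and neither passed (edgeR adjusted p = 0.63 and 0.44). Without a stated strand setting, reads from these overlaps cannot be assigned with certainty, and their part in the values was not tested.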

How the data were processed

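RNA sequencing libraries of DLD1 cells were analysed from the gene count table, in which the authors deposited raw counts per Ensembl gene, without normalization; 0 columns were left unused. The study's methods name Cutadapt, HISAT2 on GRCh38 and HTSeq, whereas the submitters' processing notes name HISAT2 2.2.1, featureCounts 2.0.0 and DESeq2 1.34.0. The annotation release and strand setting are not given in the sources used here. The labels describe poly(A) selection with a stranded kit and the methods describe removal of ribosomal RNA. The labels give 2 libraries per group and the methods 3 biological replicates. The design text speaks of separate TRMT6 and TRMT61A groups, whereas the sample labels give 1 combined group, which was used.

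Genes were kept by edgeR's group-wise filter (minimum count 10), scaled by TMM and tested with edgeR 4.0.16 (quasi-likelihood, no block, R 4.3.3), with Benjamini-Hochberg adjustment over 14133 genes. A standard error is |log2 fold change| over the root of the F statistic. The steps were tested on simulated data. Library totals ran from 10327498 to 12379671, and a count of 0 allows up to 3 counts. GENCODE release 44 gave symbols, lengths and coordinates for 57532 identifiers.

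The chemokine genes and every gene list were chosen with earlier results of these data known. The genes named were the 7 chemokines, TRMT6 and TRMT61A, all their receptors and other ELR genes, of each other list up to 4 tested genes with the smallest adjusted p and those the study measured in these cells, and the 3 genes of most similar pattern, computed on log2(CPM + 0.5), of which 1 is not reported here. Each result was also computed with DESeq2 1.42.0, with RLE factors or no composition scaling, with other filters, with a replicate block and with each library left out.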

Additional observations from a re-analysis of the deposited data

How the results depend on the processing

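The log2 fold changes of the 7 chemokine genes kept their sign under all alternatives run. With library size as the only scaling, CXCL5 had 0.40 and CXCL8 0.38, as every value fell by about the median shift of all genes. With 1 library left out, the values ranged from 0.43 to 1.17 for CCL20, 0.74 to 1.15 for CXCL1, 0.06 to 0.32 for CXCL2, 0.94 to 1.20 for CXCL3, 0.45 to 0.54 for CXCL5, 0.42 to 0.52 for CXCL8 and -0.18 to -0.02 for CXCL16; these are values without a test, from a fit with a dispersion of 0.01. Of the 7, 4 were called higher with DESeq2 (all but CCL20 of the 5) and 5 under the other alternatives with a test. Over all genes, DESeq2 called 1240 at an adjusted p below 0.05 against 2976, and 288 past both thresholds against 445, while 738 passed both without a filter and 216 when every library had to reach 10 counts. With a replicate block 2658 genes were called, 5 of the 7 among them, and CXCL5 had 0.50; deviations from the group mean correlated at -0.085 between libraries of equal number, so they share only a number. Of 41 other genes named in the text and called, 20 kept the call under every alternative that gave an adjusted p and 21 lost it under at least 1; the causes were not tested. At this depth a gene at 0 counts cannot be told from one at up to 3 counts.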

Other observations

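After the values of IL17C and IL17RA had been seen, 3 further lists around the IL-17 pathway were examined, so they are a description of a choice made on these data. The first held 3 IL-17 receptor chain genes. IL17RE, which encodes the partner chain through which IL-17C signals, was lower in OE-WT, with 82 and 90 counts against 145 and 166. Its log2 fold change was -0.53 (SE 0.16, edgeR adjusted p = 0.021, but 0.18 with DESeq2). IL17RB and IL17RD did not pass. A further chain gene, IL17RC, was in the earlier receptor list and did not pass either (log2 fold change -0.11, edgeR adjusted p = 0.48). Of the 4 other IL-17 ligand genes only IL17D was tested, with 87 and 87 counts against 106 and 75. Of 15 epithelial genes known to respond to IL-17, 7 were tested. Of these 7, 0 were higher and 2 lower, beside 9.44% and 11.6% of all genes tested. This list holds none of the 7 chemokines. It also leaves out NFKBIZ and ZC3H12A, which stand in other lists and were higher, with log2 fold changes of 0.64 and 0.38. The 0 therefore depends on which genes were listed. SAA1, an acute-phase protein gene, had 464 and 555 counts in OE-WT against 1106 and 952 in CTRL, a log2 fold change of -0.69 (SE 0.08, edgeR adjusted p = 5.3e-06). ICAM1, an adhesion molecule gene, had a log2 fold change of -0.30 (SE 0.06, edgeR adjusted p = 0.0024). LCN2, which encodes the antimicrobial protein lipocalin-2, had 0.19 (SE 0.07, edgeR adjusted p = 0.055), and it was the 1 gene of this list that was higher at an unadjusted p below 0.05; DESeq2 called 0 of the list higher at an adjusted p below 0.05.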
